A study of Mus musculus with 20 samples.

Results

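The comparison is that of livers of mice without Crem against livers of wild-type (WT) mice at the onset of light. Its members were chosen by label: the arrays of the series whose labels give the time as 0 h, 10 of the 20 arrays in all. Of these, 5 came from Crem-/- (KO) mice, with the numbers 1, 76, 77, 143 and 144, and 5 from WT mice, with the numbers 78, 80, 145, 146 and 147. Each array held the RNA of 1 whole liver, labelled and hybridized to an Affymetrix Mouse Gene 1.0 ST array. The other 10 arrays of the series, 5 KO and 5 WT livers taken 12 h later at the end of the light period, came from other mice.

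The strain was 129Pas x C57Bl/J, a mixed background, and every mouse was aged 8 weeks, untreated, and kept on 12 h of light and 12 h of dark with free access to food and water. KO and WT mice of such a mixed strain can differ at other loci too, and the labels give neither litters nor sex. The labels give each array a batch, and every batch of 0 h holds both genotypes. Batch 1 holds KO mice 77 and 143 and WT mouse 146, and batch 2 holds KO mouse 1 and WT mouse 78. Batch 3 holds KO mouse 144 and WT mice 80 and 145, and batch 4 holds KO mouse 76 and WT mouse 147. All values are log2 expression values, all differences are KO minus WT on that scale, and a gene passed at an adjusted p under 0.05 over 25689 probe sets (limma). The number of arrays limits the precision: the 95% confidence interval of a difference reached a median of 0.203 to either side.

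CREM is a transcription factor of the CREB family, which binds cAMP response elements and conveys signals of cAMP and protein kinase A to the genome. In the liver glucagon and adrenaline raise cAMP during fasting, and genes of gluconeogenesis such as Pck1 are classical targets of this route. Some Crem products activate transcription, and the short ICER products repress it. For a nocturnal animal the onset of light is the end of the feeding period and the start of rest, when the liver turns from the storage of nutrients towards their release.

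No probe set passed, and the genes with the largest differences were of diverse function on both sides. Among the lower ones, the transporter Mfsd2a, the taurine synthesis enzyme Csad, the omega-hydroxylase Cyp4a10 and the phospholyase Etnppl had values 0.54 to 0.80 below those of WT livers, as did the cadherin Dsg2 by 0.54. Of 18 measured genes of cholesterol synthesis 17 had a value above 0, and of 18 genes of mitochondrial fatty acid oxidation 15 had a value below 0. The smallest adjusted p of all was 0.202, and 0 of 25689 probe sets (0%) passed. At an unadjusted p under 0.05 there were 566 probe sets with higher values in KO livers (2.2%) and 582 with lower values (2.27%), 1148 in all (4.47%).

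The label check came first. Crem stood at 8.17, 7.43, 8.07, 7.87 and 7.69 in KO mice 1, 76, 77, 143 and 144, and at 8.31, 8.11, 8.54, 8.42 and 8.24 in WT mice 78, 80, 145, 146 and 147. KO mouse 1 was the only KO liver above a WT liver, that of mouse 80. The difference was -0.48 (standard error 0.12), with an exact permutation p of 0.0159 (two-sided) for Crem alone and an adjusted p of 0.987. It was below 0 in each of the 4 batches, and the size was smallest in batch 2, which holds KO mouse 1 (-0.14). Without KO mouse 1 it was -0.56. The labels do not say which part of Crem is deleted, so a probe set outside that part would still give a signal in KO livers.

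The libraries of 2 mice stood apart and touch many values that follow. WT mouse 80 lay at 35.5 on the first principal component, which held 21.8% of the variance, while the other 9 livers lay between -14.9 and 6.27. In WT mouse 80, 241 probe sets were lower than in all other 9 livers and more than 1 below their median, against 4 to 19 in any other liver. KO mouse 1 had the highest values of several acute phase genes, described below. Differences that became 1.5 times smaller or more without either mouse are given without it where the gene is described in detail, and the part of these mice in other differences was not tested. All 10 arrays correlated at 0.985 or more with each other, and hepatocyte markers stood at like levels in both groups. Alb, the serum protein albumin, was at 14.31 ± 0.06 in the KO group and 14.28 ± 0.06 in the WT group (SD, n = 5 each).

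Over the whole array the 2 genotypes were centred on the same value. The median difference over 25689 probe sets was -0.0008, with quartiles of -0.067 and 0.069, and 49.7% of probe sets were above 0. The array medians averaged 7.21 ± 0.016 for KO and 7.20 ± 0.025 for WT arrays (SD, n = 5 each) and thus differed by 0.015, with p = 0.262 in a two-sided exact permutation test. Larger differences were more often upward: 68 probe sets were above 0.5 (0.265%) and 19 were below -0.5 (0.074%), and 10 were above 1 (0.0389%) while 0 were below -1 (0%). WT mouse 80 had 241 probe sets more than 1 below the median of the other livers and lower than all of them. KO mouse 1 had 26 on the upper side by the same measure. The part of these 2 mice in the upward tail was not tested.

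A small shift went with the brightness of the probe set. The probe sets were put into 5 classes of equal size by mean level, from 1 (dimmest) to 5 (brightest). In classes 2 and 3 the median difference was 0.017 and 0.012, and 56.4% and 54.7% were above 0. In classes 4 and 5 it was -0.010 and -0.019, and 45.8% and 42.1% were above 0. Class 1 had a median of -0.001, so middling probe sets lay slightly higher and bright ones slightly lower in KO livers. Without WT mouse 80 the same order was wider, from 0.030 in class 2 to -0.026 in class 5. After quantile normalization of the arrays all 5 medians were between -0.008 and 0.001. Centring each array on its median moved the split at an unadjusted p under 0.05 from 566 higher and 582 lower (49.3% higher) to 379 and 782 (32.6% higher), so the balance of directions is tied to the scaling.

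**Figure D1:**
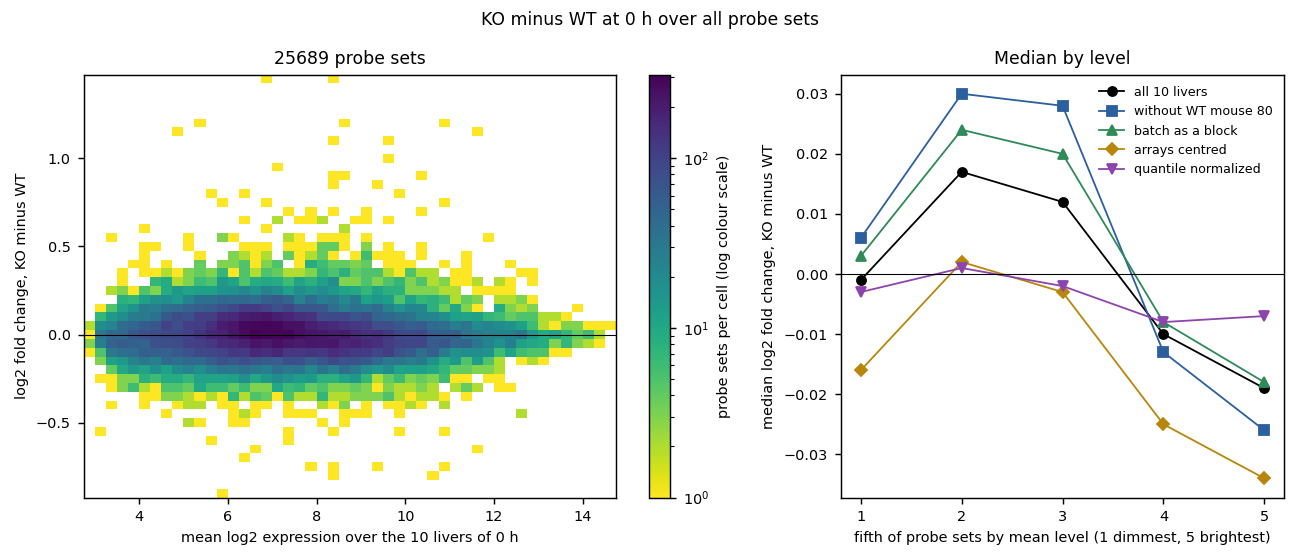
Left: difference between KO and WT livers at 0 h (log2, vertical axis) against the mean log2 expression over the 10 livers (horizontal axis), with the number of probe sets in each cell as a colour on a log scale. Right: median difference in each of the 5 classes of mean level, for all 10 livers, without WT mouse 80, with batch as a block, with centred arrays and after quantile normalization. With all 10 livers the medians run from 0.017 in class 2 to -0.019 in class 5.

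Genotype accounted for 11.6% of the sum of squares among the 10 livers, where 1 of 9 degrees of freedom is 11.1%. Batch accounted for 36.5%, where 3 of 9 degrees of freedom are 33.3%, and genotype after batch for 10.4%. Within the batches the median difference was 0.0032, -0.0026, 0.0058 and 0.0002 in batches 1 to 4. The differences of any pair of batches, which share no mouse, correlated across probe sets with a Pearson r of -0.052 to 0.066 (a description over 25689 probe sets, which are not independent), and 49.8% to 53.6% of probe sets had the same sign. Most single probe sets therefore did not repeat their direction from batch to batch beyond an even split. The sign was above 0 in all 4 batches for 1946 probe sets (7.58%) and below 0 for 1811 (7.05%).

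All 5 KO livers were above all 5 WT livers for 88 probe sets (0.343%) and below them for 99 (0.385%). Fads2b, Psma8 and Cdk2 are among the genes with the smallest p and were named after their values were seen. Fads2b, a relative of the fatty acid desaturase Fads2, lay at 4.37 to 4.63 in KO and 3.85 to 4.16 in WT livers. Its difference was 0.51 (standard error 0.09, adjusted p = 0.202), at a dim level and with 0.07 at 12 h. Psma8 lies on chromosome 18, that of Crem, and encodes a proteasome subunit known from male germ cells. It lay at 6.98 to 7.42 in KO and 6.58 to 6.88 in WT livers. Its difference was 0.52 (adjusted p = 0.316) at 0 h and 0.36 at 12 h. Cdk2, a kinase of the cell cycle, lay at 8.08 to 8.33 in KO and 8.42 to 8.71 in WT livers, so the groups did not overlap, and its difference was -0.31 (adjusted p = 0.987).

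The genes with the largest differences of 1 sign in all batches were taken as 15 on each side. They came from 630 probe sets with 1 gene, an unadjusted p under 0.05 and the same sign in batches 1 to 4, of which 307 were higher and 323 lower. The last ones inside were Olfm3 at 0.52 and Paxx at -0.41, and the next ones outside were Cfap43 at 0.52 and Il1b at -0.40. The values chose these genes, so their sizes are a description. The adjusted p of the 30 was between 0.316 and 0.987, and in 3 of them the groups did not overlap.

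Among the 15 lowest, Csad and Mfsd2a had the largest sizes. Csad, cysteine sulfinate decarboxylase, makes the taurine that is joined to bile acids. It stood at 10.77, 10.39, 9.98, 9.91 and 9.98 in KO mice 1, 76, 77, 143 and 144, and at 11.56, 10.69, 10.97, 10.88 and 10.95 in WT mice 78, 80, 145, 146 and 147. Only KO mouse 1 reached into the WT range, above WT mouse 80. The difference was -0.80 (standard error 0.27, 95% confidence interval -1.37 to -0.23, adjusted p = 0.987), and it was -0.56 to -0.93 within the 4 batches. At 12 h, in other mice, the difference was 0.30.

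Mfsd2a carries lysophosphatidylcholine into cells, and in the liver it is known as a gene of fasting. Its values were 8.36, 7.83, 7.94, 7.77 and 7.69 in KO mice 1, 76, 77, 143 and 144. In WT mice 78, 80, 145, 146 and 147 they were 9.14, 8.33, 9.31, 8.46 and 8.33. The groups touched, since KO mouse 1 was just above WT mice 80 and 147, and the other 4 KO livers were below all WT livers. The difference was -0.80 (standard error 0.19, adjusted p = 0.987), with -0.50 to -1.13 within batches and -0.58 at 12 h.

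Etnppl breaks down phosphoethanolamine, a building block of membrane phospholipids, and is a gene of the periportal hepatocyte. It was at 10.13, 10.80, 10.94, 10.97 and 10.38 in KO mice 1, 76, 77, 143 and 144, against 10.83, 11.26, 11.35, 11.10 and 11.38 in WT mice 78, 80, 145, 146 and 147. WT mouse 78 was the only WT liver within the KO range. The difference was -0.54 (standard error 0.15, adjusted p = 0.987) at 0 h and -0.59 at 12 h, and without KO mouse 1 it was -0.41.

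Dsg2, a cadherin of desmosomes on chromosome 18, had the second smallest p of all genes. Its values were 9.89, 9.79, 9.57, 9.51 and 9.52 in KO mice 1, 76, 77, 143 and 144, and 10.29, 9.88, 10.29, 10.07 and 10.44 in WT mice 78, 80, 145, 146 and 147. KO mouse 1 and WT mouse 80 met at 9.89 and 9.88, and no other liver crossed. The difference was -0.54 (standard error 0.10, adjusted p = 0.316), within batches it was -0.40 to -0.65, and at 12 h it was -0.46. With WT mouse 80 and KO mouse 1 both left out, a choice made after seeing the data, Dsg2 passed as the only gene (-0.67, adjusted p = 0.0243).

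The other low genes were of diverse function. Cyp4a10, a fatty acid omega-hydroxylase of the PPAR alpha programme, had a difference of -0.76 at 0 h and -1.60 at 12 h, with -1.21, -0.58, -0.04 and -1.11 in batches 1 to 4. It belongs to a family of near-identical genes, so its probe set may also read its relatives. Groups that did not overlap were found for Bmp10, a ligand of the BMP family (-0.43), for Arhgef19 (-0.43), and for the olfactory receptor pseudogene Olfr1372-ps1 (-0.48). The rest were Zfp874a (-0.53), Tmem45a (-0.48), the matrix protein gene Hmcn1 (-0.44), Habp4 (-0.42), Slfn8 (-0.42) and Paxx, of DNA end joining (-0.41). Of the 15 lowest, Crem included, 10 had the same sign at 12 h.

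The 15 highest included many genes whose difference was tied to WT mouse 80. In 9 of the 15 it had the lowest value of all 10 livers: Kif5b, Zfp759, Tc2n, Lpl, Samd9l, Zfp386, Mpp7, Appl1 and Olfm3. Kif5b, the heavy chain of a motor protein that carries cargo along microtubules, shows the pattern. It was at 9.74, 9.85, 9.92, 10.02 and 9.20 in KO mice 1, 76, 77, 143 and 144, and at 9.11, 7.53, 9.37, 9.11 and 9.44 in WT mice 78, 80, 145, 146 and 147. WT mouse 80 was more than 1 below the next liver, yet without it the other 4 WT livers still overlapped only with KO mouse 144. The difference was 0.84 with it and 0.49 without it. Without WT mouse 80 the difference of the 15 genes ranged from 0.28 (Olfm3) to 1.01 (Serpina1d), and it became smaller by 1.5 times or more for Kif5b, Zfp759 (0.75 to 0.45), Samd9l (0.67 to 0.37), Zfp386 (0.66 to 0.40), Mpp7 (0.64 to 0.41), Appl1 (0.54 to 0.36) and Olfm3 (0.52 to 0.28).

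Serpina1d, an alpha-1-antitrypsin gene, had the largest difference of these 15 genes, though not of the array, and fell into separate levels. All 5 KO livers were at 11.79 or more, and WT mice 78 and 147 were at 12.03 and 11.74. WT mice 80, 145 and 146 were at 10.44, 10.31 and 10.18. The difference was 1.14 (standard error 0.40, adjusted p = 0.987), it was 2.05 and 1.46 in batches 1 and 3 but 0.27 and 0.05 in batches 2 and 4, and at 12 h it was 0.10. The Serpina1 genes are near-identical copies, so the value of a single copy is uncertain. BC023105 was at 7.25 to 7.73 in KO livers and at 5.74, 5.83, 6.81, 7.18 and 7.58 in WT mice 78, 80, 145, 146 and 147. Its difference was 0.94 at 0 h and 0.90 at 12 h.

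Lpl, lipoprotein lipase, which frees fatty acids from circulating triglycerides, was at 8.82, 9.39, 9.60, 8.91 and 10.48 in KO mice 1, 76, 77, 143 and 144, and at 8.38, 8.33, 9.34, 8.70 and 8.86 in WT mice 78, 80, 145, 146 and 147. KO mouse 144 was the highest and the groups overlapped. The difference was 0.72 (standard error 0.25, adjusted p = 0.987) at 0 h and -0.07 at 12 h, and 0.46 without KO mouse 144, its lowest value with any 1 liver left out. Chrna4, a subunit of the nicotinic acetylcholine receptor, was above all WT livers in 4 KO livers (8.65 to 9.12) and at 8.03 in KO mouse 144, against 7.83 to 8.44 in WT livers (difference 0.71). Sult5a1, a sulfotransferase, had a difference of 0.63. The chemokine Cxcl1 and the NF-kappa B inhibitor Tnfaip3 also stood among the 15, and their values rested in part on KO mouse 1: without it 0.63 became 0.37 for Cxcl1 and 0.55 became 0.17 for Tnfaip3. Of the 15 highest, 10 had the same sign at 12 h. Of all probe sets 53.8% had.

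**Figure D2:**
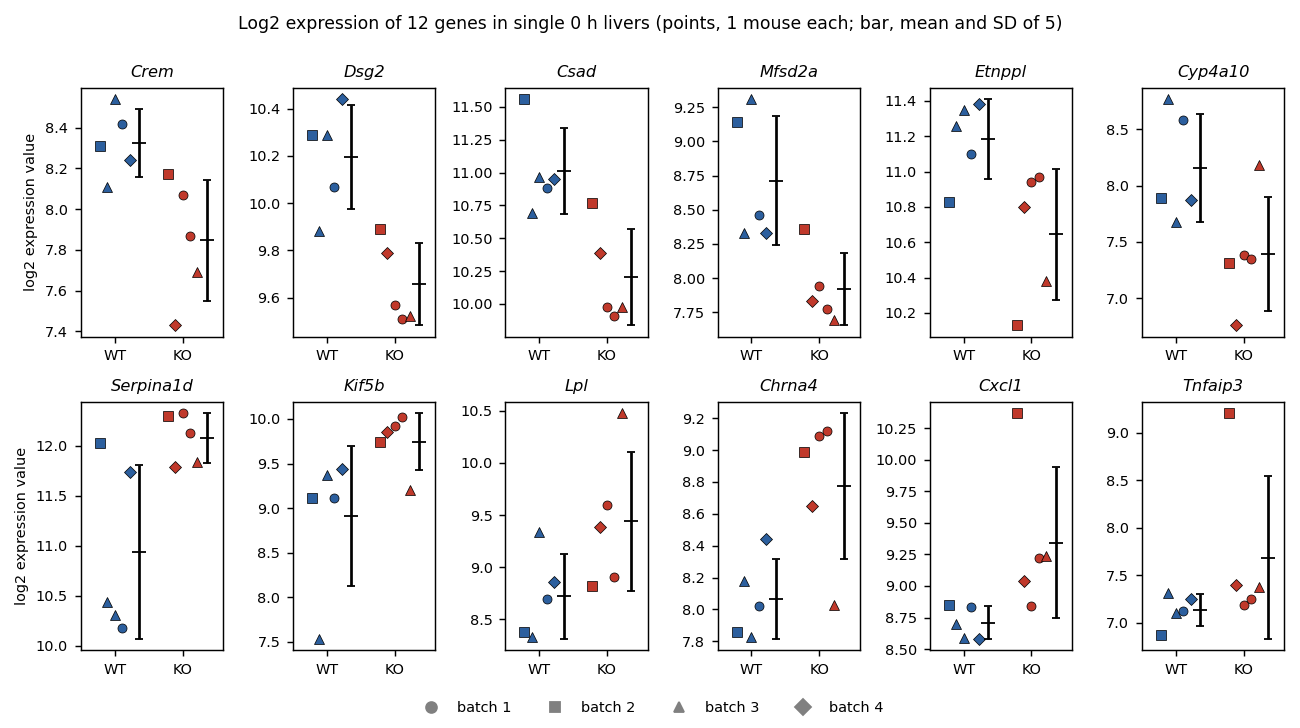
Log2 expression values (vertical axes, each with its own range) of 12 genes in single WT (blue) and KO (red) livers at 0 h, with the batch as symbol and the mean and SD of 5 mice as a black bar. Crem and Dsg2 overlap only through KO mouse 1, Serpina1d has 3 WT livers near 10.3 and 2 near the KO livers, and Kif5b is lowest in WT mouse 80.

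Of the 30 genes, 5 lie on chromosome 18, that of Crem: Dsg2, BC023105, Kif5b, Mpp7 and Crem itself. Kif5b, Mpp7, Dsg2 and BC023105 lie 2.93, 4.08, 17.3 and 57.2 Mb from Crem. The differences of Kif5b and Mpp7 were smaller without WT mouse 80, at 0.49 and 0.41. Outside the 30 genes, Psma8 (0.52) and Zfp532 (0.32) lie on chromosome 18 too. Both are among the genes with the smallest p, and their groups did not overlap. Within 20 Mb of Crem 14.8% of 81 probe sets had an unadjusted p under 0.05, beside 4.47% over the whole array, and 10 of these were higher and 2 lower. The part of WT mouse 80 in this share was not tested. In a mixed strain a deleted gene stays linked to the alleles of the line in which it was made, and what that contributes here cannot be told apart from the deletion.

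To describe pathways, 54 lists of genes were followed, each by its counts and its median, without a test. Of 877 list genes 0 passed. The groups did not overlap for 3 of them upward and 8 downward, beside 0.366% and 0.392% of all 19661 genes. The medians lay between -0.15 and 0.19, 18 above 0 and 36 below it, and 34 kept their sign under every setting. Bright probe sets leaned slightly downward as a whole. In classes 4 and 5 of mean level the median was -0.010 and -0.019, and 45.8% and 42.1% were above 0. Counts of signs in lists of bright genes stand beside these shares, and the part of brightness in them was not tested. Of the lists, 8 had a median of 0.1 or more in size.

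Cholesterol synthesis had the highest median of the lists of pathways and cell types, next to that of the 4 X-inactivation and Y-linked genes at 0.19. The list holds the enzymes from acetyl-CoA to cholesterol and the regulators Srebf2 and Insig1. Its median was 0.18, and 17 of 18 measured members were above 0, beside a median of 0.00 over all genes. The median was 0.23, 0.14, 0.12 and 0.07 in batches 1 to 4, 0.12 to 0.21 with any 1 liver left out, and -0.03 at 12 h. The mean level of the list was 11.54, 11.39, 11.52, 11.26 and 11.34 in KO mice 1, 76, 77, 143 and 144, and 11.32, 11.29, 11.12, 11.15 and 11.28 in WT mice 78, 80, 145, 146 and 147. KO mice 1, 76, 77 and 144 were above all WT livers, and KO mouse 143 was among them.

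The members stood as follows, by their order in the pathway. Hmgcs1, which starts the branch to sterols, had a difference of 0.32 with a wide interval (95% confidence interval -0.19 to 0.83). Of the kinases and the decarboxylase of mevalonate, Mvk was at 0.08, Pmvk at 0.30 and Mvd at 0.32. Pmvk was the only member whose groups did not overlap: 11.03, 10.49, 10.62, 10.55 and 10.50 in KO mice 1, 76, 77, 143 and 144, and 10.35, 10.45, 10.26, 10.22 and 10.42 in WT mice 78, 80, 145, 146 and 147. Most KO livers were only just above the WT livers, and KO mouse 1 was well above. Its adjusted p was 0.987, and without KO mouse 1 the difference was 0.20.

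Further down the pathway, the prenyl transferase Fdps was at 0.23, and Fdft1 and Sqle, which make and oxidize squalene, were at 0.17 and 0.27. Sqle lay at 11.13 to 11.49 in KO and 10.94 to 11.15 in WT livers, so that only KO mouse 144 fell below a WT liver. Lss, which closes the sterol rings, had the largest difference (0.37, standard error 0.16), with 0.58, 0.64, 0.37 and 0.03 in batches 1 to 4. The later enzymes Cyp51, Dhcr7, Msmo1, Nsdhl, Hsd17b7, Sc5d, Ebp and Tm7sf2 ranged from -0.01 to 0.20. Srebf2, the master regulator of the pathway, was at 0.04, and Insig1, which holds SREBP proteins back in the endoplasmic reticulum, at 0.13. At an unadjusted p under 0.05 there were 2 members upward, Pmvk and Lss, beside 2.29% of all genes.

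Lipogenesis, the making of fatty acids and triglycerides, had a median of 0.08, with 12 of 17 members above 0. The fatty acid synthase Fasn was at 0.28 and the elongase Elovl6 at 0.38, and both lay higher in batches 1 and 2 and near or below 0 in batch 4. Thrsp was at 0.28, Acaca at 0.24 and Gpam at 0.23. Dgat1, which completes triglycerides, went the other way, at 9.16 to 9.48 in KO and 9.36 to 9.60 in WT livers (difference -0.19). The medians in batches 1 to 4 were 0.19, 0.36, 0.01 and -0.06.

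Genes for the burning of fatty acids had lower values. Mitochondrial fatty acid oxidation had a median of -0.08, with 15 of 18 members below 0, and its median was below 0 in each batch (-0.07, -0.09, -0.03 and -0.08). The mean level of the list was 11.34, 11.25, 11.34, 11.24 and 11.38 in KO mice 1, 76, 77, 143 and 144, and 11.42, 11.44, 11.37, 11.40 and 11.36 in WT mice 78, 80, 145, 146 and 147. Only KO mouse 144 reached the WT range. At 12 h the median was -0.09.

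Cpt1a, the gatekeeper by which long fatty acids enter the mitochondrion, had the largest difference of the list. It stood at 10.96, 10.76, 11.01, 10.84 and 11.07 in KO mice 1, 76, 77, 143 and 144, and at 11.50, 11.24, 11.22, 11.13 and 11.14 in WT mice 78, 80, 145, 146 and 147. All KO livers were below all WT livers. The difference was -0.32 (standard error 0.09, 95% confidence interval -0.51 to -0.13, adjusted p = 0.987), with -0.20, -0.54, -0.16 and -0.38 in batches 1 to 4 and -0.07 at 12 h.

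Around Cpt1a, the carnitine transporter Slc22a5 was at -0.31, the carnitine carrier Slc25a20 at -0.11 and Cpt2 at -0.09. The acyl-CoA dehydrogenases Acadl, Acads, Acadvl and Acadm, which take the first step of each round of oxidation, were between -0.12 and -0.05. The members above 0 were Etfa (0.06), Echs1 (0.04) and Decr1 (0.02). Most of these sizes are within the interval of a single gene, and only Cpt1a and Slc22a5 had an unadjusted p under 0.05, beside 2.35% of all genes downward.

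Ketone bodies are made from the products of this oxidation. Of 4 measured genes of ketogenesis 3 were below 0 (median -0.12). Bdh1, which interconverts the ketone bodies, was at 10.76, 10.82, 11.01, 10.85 and 11.04 in KO mice 1, 76, 77, 143 and 144 and at 11.14, 11.20, 11.06, 11.09 and 11.12 in WT mice 78, 80, 145, 146 and 147. All KO livers were below all WT livers by a narrow margin, and the difference was -0.23 (adjusted p = 0.987). Ppara, the nuclear receptor that switches on these genes in fasting, was at -0.19.

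Peroxisomal oxidation and omega-hydroxylation had a median of -0.14, with 10 of 14 members below 0, and the other PPAR alpha targets a median of -0.14, with 15 of 18 below 0. For the latter the median was -0.25, -0.10, 0.02 and -0.23 in batches 1 to 4, and -0.38 at 12 h. Angptl4, a secreted inhibitor of lipoprotein lipase, was at -0.49 (95% confidence interval -0.98 to 0.01), and Aldh3a2, a fatty aldehyde dehydrogenase, at -0.37. The acyl-CoA thioesterases Acot1, Acot2, Acot3 and Acot4 were between -0.36 and -0.19. Fgf21, the hormone of fasting, was at -0.01, Fabp1 at 0.02, and Pdk4 and Cd36 at 0.09 and 0.12. Within the first list Cyp4a10, Cyp4a14 and Cyp4a31 were at -0.76, -0.64 and -0.37 and Cyp4a12a at 0.30, so this family did not share a sign.

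**Figure D3:**
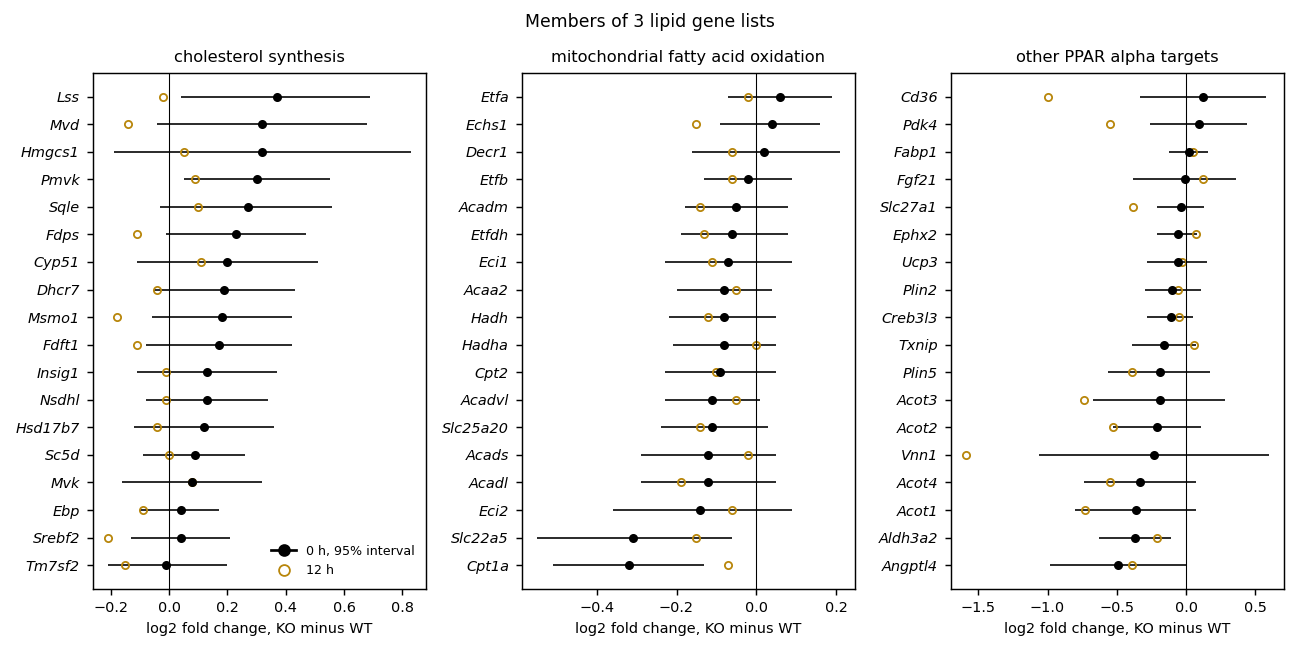
Difference between KO and WT livers (log2, horizontal axes) of each measured member of the lists of cholesterol synthesis, mitochondrial fatty acid oxidation and other PPAR alpha targets. Black points with lines give 0 h and its 95% confidence interval, and open points give 12 h; Lss lies at 0.37 and Cpt1a at -0.32 at 0 h.

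Lists of the routes through which CREM is known to act had small medians, while the intervals of single genes were wider. Gluconeogenesis had a median of -0.07 over 10 genes. Pck1, which commits carbon to new glucose, was at 10.93 to 12.05 in KO livers and at 11.43 or more in WT livers, and the groups overlapped (difference -0.31, and -0.16 as its smallest size with 1 liver left out). G6pc, which releases glucose from the cell, was at -0.06, and the coactivator Ppargc1a at 0.19. Among the other CREB family factors Creb1 was at 0.04, Atf1 at 0.06 and Creb3l3 at -0.11. The coactivators Crtc2, Crebbp and Ep300 were at -0.01, -0.13 and -0.05, and the 21 genes of cAMP signalling had a median of -0.03.

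Immediate early genes, which answer stimuli within minutes and include targets of CREB, had a median of 0.06, with 14 of 19 members above 0 and a median above 0 in each batch (0.16, 0.11, 0.13 and 0.08) and of 0.10 with batch as a block. Egr1 was at 8.18, 7.68, 7.97, 7.31 and 9.78 in KO mice 1, 76, 77, 143 and 144 and at 7.22 to 7.81 in WT livers. KO mouse 144 was the highest by far, and KO mice 76 and 143 lay within the WT range (difference 0.71, and 0.31 without KO mouse 144). Ier2 was at 0.39, Nr4a1 at 0.25, Btg2 at 0.24 and Fos at 0.22, while Jun and Sik1 were both at -0.11. At an unadjusted p under 0.05 (limma) there were 4 members upward and 0 downward, beside 2.29% and 2.35% of all genes.

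The 13 genes of the core clock had no common sign. Rora, an activator of Arntl, was at 0.31, but at 0.15 without WT mouse 80, and the repressors Cry2, Cry1 and Per1 were at -0.19, -0.16 and -0.15. Arntl was at -0.06, Clock at 0.18, Nr1d1 at -0.04 and Per2 at 0.04. The median was 0.04 with all livers and -0.05 without WT mouse 80.

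CREM and its relatives bind the palindrome TGACGTCA, the full cAMP response element, and the shorter TGACG. A promoter sequence, 250 bases before to 50 after the start, was found for 15353 measured genes in RefSeq (GRCm38.p6), and 2.72% of these hold TGACGTCA, while 27.9% hold TGACG on either strand, which every full element also contains. Among genes whose groups did not overlap, 1 of 57 higher genes (1.75%) and 1 of 60 lower genes (1.67%) hold the full element. Among genes with an unadjusted p under 0.05 the shares were larger, 12 of 335 higher genes (3.58%) and 14 of 374 lower genes (3.74%), and TGACG was held by 29.9% and 31% of them. None of these shares was tested. The median difference was -0.003 over the 418 genes with it and -0.000 over the 11077 genes with neither motif. Both medians lay near 0. Over all promoters of this length in the table, measured or not, the shares were 1.79% and 20.8%.

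Of the 30 genes with the largest differences, 21 have such a promoter and 2 of these hold the full element. Their promoters are shown, as the only ones of these 21 in which the full element was found (the shorter TGACG was not counted gene by gene), with TGACGTCA in capitals. That of Zfp874a lies on the minus strand at chr13:67451575-67451874 and that of Habp4 on the plus strand at chr13:64161616-64161915 (both RefSeq, GRCm38.p6, 5′ to 3′).
Zfp874a: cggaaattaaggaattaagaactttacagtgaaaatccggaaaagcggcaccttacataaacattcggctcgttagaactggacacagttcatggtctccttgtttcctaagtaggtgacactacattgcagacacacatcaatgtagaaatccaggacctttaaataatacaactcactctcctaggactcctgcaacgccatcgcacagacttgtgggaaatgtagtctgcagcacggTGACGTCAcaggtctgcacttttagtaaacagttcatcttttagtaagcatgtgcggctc
Habp4: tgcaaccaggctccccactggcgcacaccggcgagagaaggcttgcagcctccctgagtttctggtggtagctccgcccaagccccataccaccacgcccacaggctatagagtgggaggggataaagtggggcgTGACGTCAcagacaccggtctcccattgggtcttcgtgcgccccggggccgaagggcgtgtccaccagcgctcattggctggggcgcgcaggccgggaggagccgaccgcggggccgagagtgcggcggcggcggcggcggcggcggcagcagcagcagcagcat

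Zfp874a, a zinc finger gene, was at 7.93, 8.63, 8.90, 7.90 and 7.52 in KO mice 1, 76, 77, 143 and 144, and at 8.55 to 8.83 in WT livers. KO mice 1, 143 and 144 were low and KO mice 76 and 77 were within or above the WT range (difference -0.53, and 0.04 at 12 h). Habp4, which encodes a protein that binds hyaluronan and RNA, was at 9.80 to 10.27 in KO and 10.19 to 10.73 in WT livers (difference -0.42, and -0.06 at 12 h). The match of letters is a description and does not show that CREM binds there.

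Acute phase genes encode plasma proteins that the liver secretes in inflammation. Their median was 0.07, with 23 of 27 above 0, and this rested largely on 1 liver: KO mouse 1 had a mean list level of 11.51, the other 4 KO livers 10.67 to 10.96 and the WT livers 10.49 to 10.94. Saa2, serum amyloid A, was at 13.47, 11.10, 12.07, 10.80 and 9.99 in KO mice 1, 76, 77, 143 and 144, and at 10.63, 8.84, 10.47, 10.26 and 11.24 in WT mice 78, 80, 145, 146 and 147. KO mouse 1 was highest and WT mouse 80 lowest. The difference was 1.20 (standard error 0.52, adjusted p = 0.987), 0.70 without KO mouse 1 and 0.83 without WT mouse 80. Lcn2, lipocalin, was at 11.52 in KO mouse 1 and at 7.24 to 8.90 in the other 9 livers (difference 0.90, and 0.28 without KO mouse 1). Without KO mouse 1 the median of the list was 0.01, and the 2 batches without either mouse, 1 and 4, gave 0.08 and -0.20.

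Neutrophil markers had a median of 0.11, with 10 of 14 above 0, and of 0.10 to 0.12 with any 1 liver left out. In batches 1 to 4 their median was 0.10, 0.15, 0.15 and -0.15. Their mean list levels were 5.92 to 6.32 in KO and 5.94 to 6.10 in WT livers. Lcn2, which hepatocytes also make, was the member with the largest difference. Of the other members, Ly6g, Elane and Mpo were at -0.06, -0.06 and 0.13. Interferon-stimulated genes had a median of 0.05, with 21 of 31 above 0. Ifit1, an antiviral protein that binds foreign RNA, was at 8.62, 8.87, 8.26, 7.90 and 8.59 in KO mice 1, 76, 77, 143 and 144 and at 7.80, 6.85, 7.91, 8.61 and 7.78 in WT mice 78, 80, 145, 146 and 147. WT mouse 146 was the only high WT liver, so the difference of 0.66 was 0.83, 1.21 and 1.09 in batches 2, 3 and 4 and -0.53 in batch 1. Without WT mouse 80, the lowest liver, it was 0.42. Rsad2 was at 0.36 and Usp18 at 0.29, while Stat2 and Irf7 were at -0.21 and -0.14.

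Kupffer cell and macrophage markers had the lowest median of all 54 lists, -0.15, with 14 of 17 below 0. In whole liver, fewer cells of a type and less RNA per cell cannot be told apart. The mean list level was 9.82, 9.56, 9.38, 9.63 and 9.65 in KO mice 1, 76, 77, 143 and 144, and 9.74, 9.58, 9.86, 9.61 and 9.84 in WT mice 78, 80, 145, 146 and 147. The groups overlapped, with KO mouse 1 near the top and KO mouse 77 at the bottom. The folate receptor Folr2 was at -0.24, the complement genes C1qa, C1qb and C1qc at -0.15 to -0.23, and Clec4f, a lectin of Kupffer cells, at -0.18. Timd4 and Marco, further Kupffer markers, were at 0.01 and 0.10. The medians in batches 1 to 4 were -0.07, 0.09, -0.11 and -0.29, at 12 h the median was 0.01, and at 0 h it was -0.07 without KO mouse 77 and -0.10 with batch as a block.

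Sinusoidal endothelial markers had a median of -0.07, with 16 of 19 below 0. Gpr182, a receptor of these cells, was at 8.76, 8.66, 8.71, 8.83 and 8.80 in KO mice 1, 76, 77, 143 and 144 and at 9.14, 9.11, 8.82, 9.10 and 9.05 in WT mice 78, 80, 145, 146 and 147. Only WT mouse 145 lay within the KO range. The difference was -0.29 (standard error 0.09, adjusted p = 0.987) at 0 h and -0.36 at 12 h, and the list had a median of -0.19 at 12 h. Markers of stellate cells (median -0.02), T and NK cells (-0.01), adipocytes (0.03) and pancreas acini (-0.02) lay near 0.

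**Figure D4:**
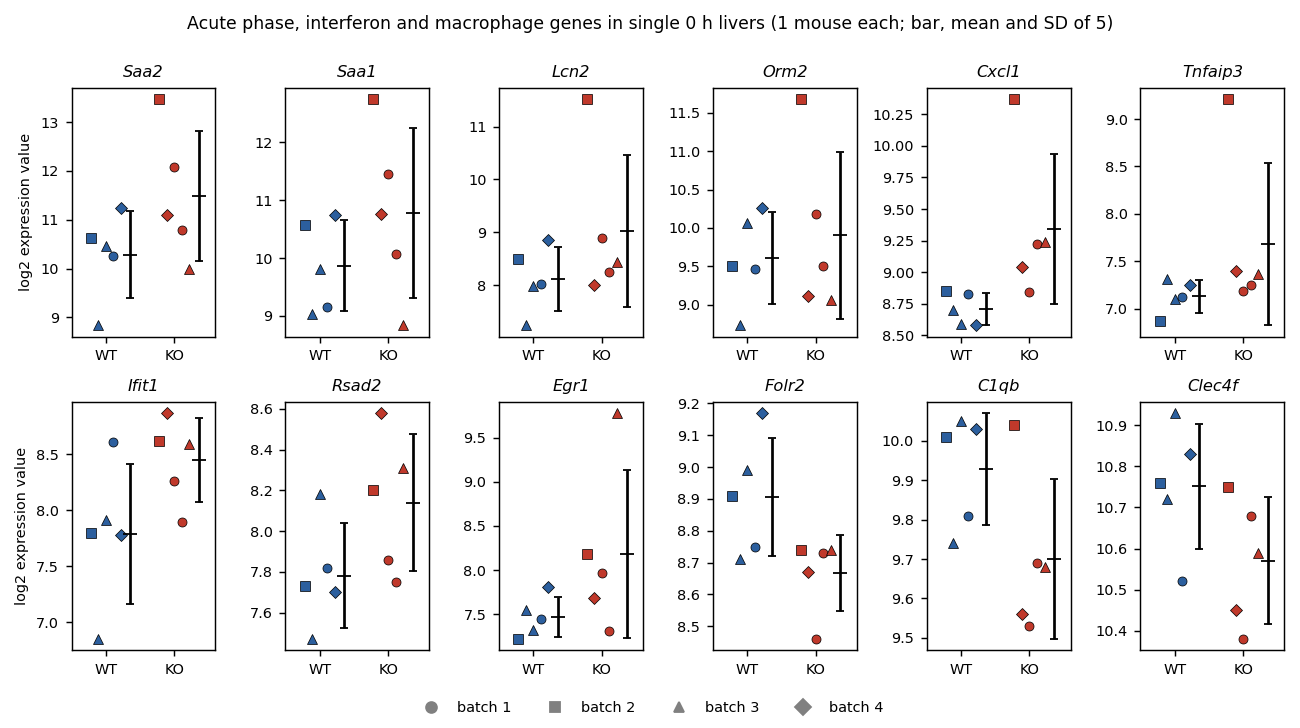
Log2 expression values (vertical axes, each with its own range) of acute phase, chemokine, interferon, immediate early and macrophage genes in single WT (blue) and KO (red) livers at 0 h, with the batch as symbol and the mean and SD of 5 mice as a black bar. KO mouse 1 (red square) stands apart for Saa2, Saa1, Lcn2, Orm2, Cxcl1 and Tnfaip3, and KO mouse 144 (red triangle) for Egr1.

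Heme and iron genes had a median of -0.11, with 18 of 26 below 0, but of -0.06 with batch as a block. It was -0.02, -0.18, -0.02 and -0.10 in batches 1 to 4, and -0.07 without WT mouse 78. The heme synthesis enzymes Alas1, Cpox, Urod, Ppox and Fech were between -0.39 and -0.13, and Alad and Uros at -0.04 and 0.05. Alas1 (-0.32) had no common sign in the batches, with 0.08, 0.83, -0.52 and -1.06 in batches 1 to 4. Its smallest size with 1 liver left out was -0.09. Urod was at 10.63, 10.49, 10.53, 10.37 and 10.56 in KO mice 1, 76, 77, 143 and 144 and at 10.79, 10.79, 10.64, 10.62 and 10.75 in WT mice 78, 80, 145, 146 and 147. KO mouse 1 lay just above WT mouse 146 and no other livers crossed, and the difference was -0.20 with -0.16 to -0.26 in the batches (adjusted p = 0.987). Hamp, the iron hormone hepcidin, was at 11.85 and 11.66 in KO mice 1 and 144 and at 12.47 to 13.25 in the other 8 livers, of which KO mouse 143 was the highest (difference -0.46, and -0.28 without KO mouse 144).

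The liver's zones and its nitrogen metabolism were also described. Periportal hepatocyte genes had a median of -0.07 (-0.03 with batch as a block), and their mean level was 12.06 to 12.19 in KO and 12.18 to 12.27 in WT livers, with only KO mouse 144 reaching WT mouse 78. A mean level also carries single large members, of which Etnppl was the largest (-0.54). Their median was -0.05, -0.01, 0.01 and -0.09 in batches 1 to 4. Pericentral genes had a median of -0.03, with 13 of 16 below 0. Asl, of the urea cycle, did not overlap between groups, at 12.14 to 12.22 in KO and 12.22 or more in WT livers, but its difference was only -0.07. The transporters Abcb4 and Abcc2, which export phospholipid and conjugates into bile, were likewise lower in all KO livers, by small amounts (-0.18 and -0.11).

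The remaining list members whose groups did not overlap were higher for Aldh1a7 (0.16), an aldehyde dehydrogenase, and Chac1 (0.16), which degrades glutathione. They were lower for Masp1 (-0.12), a protease of the lectin pathway of complement, Ndufa11 (-0.14), a subunit of the respiratory chain, and Akap1 (-0.10), an anchor of protein kinase A on mitochondria. Each had an adjusted p of 0.987. Genes of male-biased liver expression had a median of 0.09 and female-biased genes 0.01. The Y-linked Eif2s3y was at 9.90 to 10.53 in KO and 9.18 to 10.20 in WT livers, and Xist at 5.07 to 5.57 and 4.73 to 5.37, so no liver stood apart by these genes as of the other sex.

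Large differences of some list members came with large spread. Moxd1 ranged from 6.46 to 11.15 in KO and from 6.62 to 9.90 in WT livers (difference 1.19, standard error 0.83). Sult1e1, which inactivates oestrogens, was at 8.16 and 6.83 in KO mice 1 and 76 and at 4.11 to 5.17 in the other 8 livers (difference 1.21, and 0.65 without KO mouse 1). Bcl6, a repressor in growth hormone signalling, had a difference of -0.76 that was -2.28 and -1.68 in batches 1 and 2 and 0.41 and 0.27 in batches 3 and 4. Igfbp1, a secreted binder of IGF, was at 0.63 with 2.44 and -1.94 in batches 2 and 4, and at 0.31 without WT mouse 80 and 0.36 without KO mouse 1. Such genes gave the largest sizes of their lists without a common direction.

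**Figure D5:**
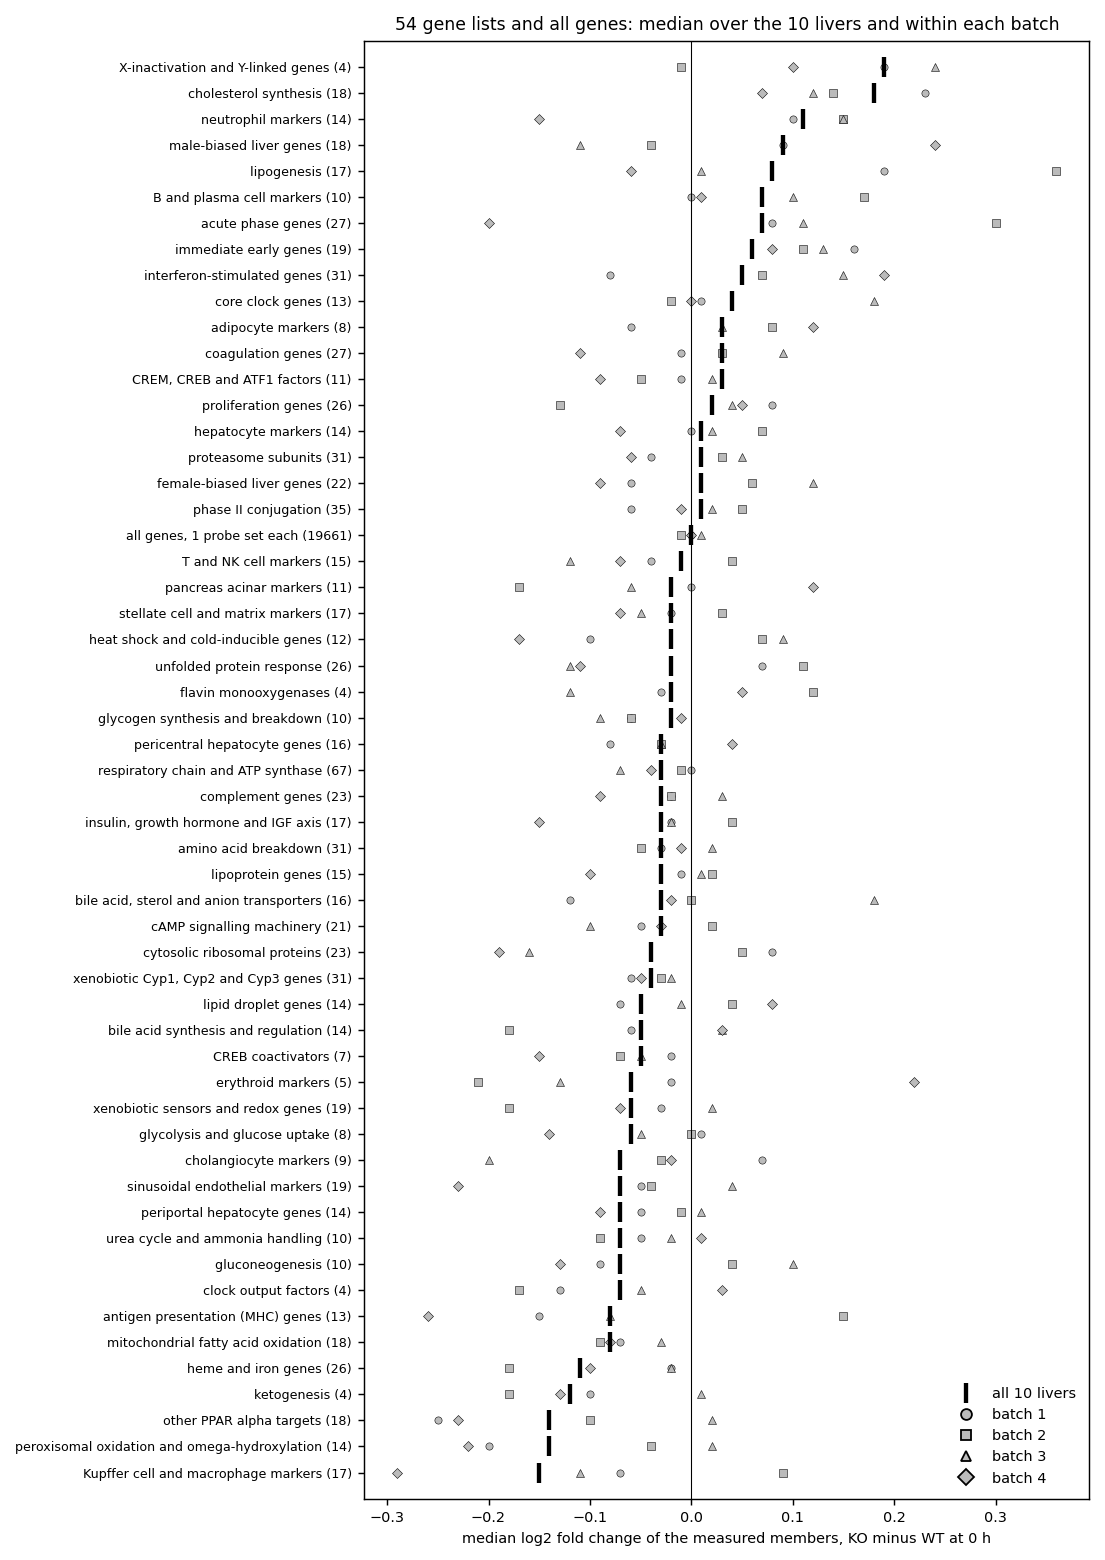
Median difference between KO and WT livers at 0 h (log2, horizontal axis) of the measured members of 54 gene lists and of all genes (number of genes in brackets), over all 10 livers (black bar) and within each batch (grey symbols). The medians lie between -0.15 (Kupffer cell and macrophage markers) and 0.19, and the batches of most lists lie on both sides of 0.

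A median of 1 sign in all 4 batches was found for 3 lists above 0, cholesterol synthesis, immediate early genes and B and plasma cell markers. It was found for 5 lists below 0, mitochondrial fatty acid oxidation, heme and iron genes, CREB coactivators, glycogen synthesis and breakdown, and the xenobiotic Cyp1, Cyp2 and Cyp3 genes. These are counts out of 54 lists, and of single probe sets 7.58% were above and 7.05% below 0 in all 4 batches. B and plasma cell markers were at 0.00 without KO mouse 143, and glycogen genes at 0.05 without WT mouse 146. At 12 h, where 6 probe sets passed, the same contrast in other mice gave differences that correlated with those of 0 h with a Pearson r of 0.108 over 25689 probe sets, and no probe set passed for the difference between the times. Of cholesterol synthesis and fatty acid oxidation, the former had medians of 0.18 and -0.03 at 0 h and 12 h, and the latter -0.08 and -0.09. The difference between the times was not tested for lists.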

How the data were processed

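Liver RNA of 5 KO and 5 WT mice at 0 h was compared. The deposited values are log2 levels of probe sets that the authors made by RMA (named in the submitters' processing notes without a version), so background correction and normalization were already done and depth and single probe signals are unknown. The files leave 9868 of 35557 probe sets without a value, and these were not used. Names came from the platform annotation (20777 probe sets with 1 gene, 232 with several, 4680 with none), and 0 symbols changed through RefSeq (GRCm38.p6), which also gave the promoters and the distances to Crem. Of 1136 list entries 193 had no probe set of their own. A gene's brightest probe set stood for it in the lists. R 4.3.3 with limma 3.58.1 estimated 4 group means over all 20 arrays, with Benjamini-Hochberg adjustment, so that the spread of all groups enters each standard error. Exact permutation tests used all 252 regroupings, whose smallest p is 0.00794. P-values measure the spread between single mice. The fit was tested on simulated data with independent noise, with 50 changed probe sets of each size. At an adjusted p under 0.05 (limma) it recovered 12% of changes of 0.3 and 64% of changes of 0.5. It recovered 98% of changes of 1 and 94% of changes of -1. Small changes would thus mostly not pass. Named by rule were Crem, the 15 highest and 15 lowest differences with an unadjusted p under 0.05 and 1 sign in all batches, the largest and the non-overlapping members of each list, and listed markers; other members of the lists illustrate their counts. The comparison, the rule and the lists were chosen with earlier results of these data known. Alternatives were a batch block, only 0 h arrays, only bright probe sets, quantile normalization, centring, an intensity trend, array weights and leaving out each liver.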

Additional observations from a re-analysis of the deposited data

Results flagged for a closer look

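In 9 of 116 sets of 5 values a single liver stood far from the other 4 of its genotype, where chance alone gives about 1 in 20, or 5.8. WT mouse 80 accounted for 5 of these, against the other 4 WT livers. Its array median was 7.24 against 7.18 to 7.19, and its first principal component 35.46 against -5.78 to 3.43. Its mean level of interferon-stimulated genes was 8.30 against 8.43 to 8.47, that of the respiratory chain and ATP synthase 11.08, above the other 4, of which the lowest was at 10.98, and that of the X-inactivation and Y-linked genes 7.45 against 8.04 to 8.10.

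Among KO livers, mouse 1 had a mean level of 8.44 for cAMP signalling genes against 8.32 to 8.35 in the other 4. KO mouse 76 had 11.13 for coagulation genes against 11.19 to 11.21, and KO mouse 77 had 7.08 for cholangiocyte markers against 6.94 to 6.98. WT mouse 145 had 10.40 for flavin monooxygenases against 10.26 to 10.29 in the other WT livers. The causes were not tested.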

How the results depend on the processing

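No probe set passed under any planned setting or with any 1 liver left out, and 1 passed, Dsg2, without WT mouse 80 and KO mouse 1, a setting added after seeing the data. Across settings the named genes gave 1656 values, of which 0 changed sign and 1, that of Dsg2, came to pass. Most of these genes were chosen by size, sign or non-overlap in the same values. A kept sign was thus favoured by the choice. Crem ranged from -0.56 to -0.37 with 1 liver left out, the median of all probe sets from -0.0040 to 0.0032, and the counts at an unadjusted p under 0.05 from 501 to 704 higher and 484 to 864 lower. With only the brighter probe sets, which are fewer, these counts were 261 and 460, non-overlapping probe sets 33 and 63, and those of 1 sign in all batches 852 and 1166. With centred arrays 54 probe sets did not overlap upward and 162 downward. Of 1080 list medians 11 moved beyond the spread between mice. With 1 liver left out, the CREM, CREB and ATF1 factors ranged from -0.05 to 0.05 (-0.05 without WT mouse 80), the core clock from -0.07 to 0.03 (-0.07 without WT mouse 145, -0.05 without WT mouse 80), glycogen genes from -0.05 to 0.05 (0.05 without WT mouse 146), periportal genes from -0.11 to -0.02 (-0.02 without WT mouse 145) and B and plasma cell markers from 0.00 to 0.10 (0.00 without KO mouse 143). Without both WT mouse 80 and KO mouse 1 the CREM, CREB and ATF1 factors were at -0.08, stellate markers at -0.06 and pancreas markers at 0.09. With only the brighter probe sets neutrophil markers were at 0.90, the value of Lcn2, and B and plasma cell markers at -0.09. The causes were not tested. No paired analysis was possible because no mouse number occurs in both genotypes, and the batch served as the block instead: 0 probe sets passed, Crem was at -0.51, and 534 higher and 509 lower probe sets had an unadjusted p under 0.05.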

Other observations

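Each of the 10 livers had some probe sets far from the other 9, and their kinds differed between mice. These genes were chosen after their values were seen. KO mouse 1 had 26 probe sets above all others by more than 1 over their median, led by Sult1e1 (8.16, the median of the others 4.82), Lcn2 (11.52 against 8.25), Saa2 (13.47 against 10.63), Saa1 (12.75 against 10.08) and Orm2 (11.68 against 9.50), and Cyp7a1, the rate-limiting enzyme of bile acid synthesis, was low in it (10.21 against 11.53). WT mouse 145 had 25 such probe sets, led by Dmbt1 (9.58 against 5.52) and Adgrg7 (8.44 against 5.74), and among them Myc (10.20 against 7.55), Gadd45g (11.08 against 8.41), Cish (9.69 against 7.84) and Jun (9.88 against 8.57), and low values of Nr0b2 (8.18 against 9.86). KO mouse 144 was high for Egr1 (9.78 against 7.55), Lpl (10.48 against 8.86) and Depp1 (11.67 against 9.78), and low for Hamp (11.66 against 12.75).

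WT mouse 80 was unlike the rest in having 241 such probe sets below the others and 9 above them. The lowest included Hmgn5 (7.82 against 9.92), Smc6 (6.44 against 8.49), Thoc2 (6.69 against 8.67) and Rock1 (6.87 against 8.83), while Asns was high (10.44 against 8.55).

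Some genes were far below the median in more than 1 liver. H2-Ea, an MHC class II gene, was at 6.02 in WT mouse 147 against a median of 9.64, and the lowest of the other 9 livers was at 6.16. Adh6-ps1 was at 6.57 in WT mouse 78 against 9.99, with another liver at 6.75. Trim12a was at 5.36 in KO mouse 1 against 7.65, with another at 5.57.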
